A study of Mus musculus with 9 samples.

Results

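This account covers 32 mouse genes for the enzymes that break down fatty acids by beta-oxidation in mitochondria and peroxisomes, the electron transfer flavoproteins that take up the electrons, and 2 peroxisomal ABC transporters. They were chosen by name as a pathway, not by their values, though earlier results of these data were known. All 32 were found among the 23444 gene rows of each deposited table. Liver RNA of C57Bl6 mice was sequenced in 9 libraries, with 3 libraries in each of 3 groups. Young mice were 2 months old and untreated, aged mice were 20 to 22 months old and untreated, and treated mice were 20 to 22 months old and had received PD-0332991 in chow for 2 weeks, with the amount labelled 450 in a unit spelled mg/k. PD-0332991 (palbociclib) blocks the kinases CDK4 and CDK6 that drive the cell cycle, and according to its title the study concerned Cdk4 and the build-up of fat in the liver with age. No young treated group was among the samples, the sex of the mice is not given in the labels, and separate mice are not stated for the libraries of a group, so p-values rest on the spread between libraries alone, which may be technical.

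Beta-oxidation shortens an acyl-CoA by repeated rounds of dehydrogenation, hydration, a second dehydrogenation and thiolytic cleavage. Mitochondria take up long-chain fatty acids through the carnitine shuttle and pass the electrons of the dehydrogenation steps to the respiratory chain. Peroxisomes use oxidases that make hydrogen peroxide, and they act on very long, branched and dicarboxylic acids and on bile acid precursors. In liver the genes of both pathways are known targets of PPARalpha, the nuclear receptor encoded by Ppara that responds to fatty acids.

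The values are TPM, a relative transcript abundance corrected for transcript length, so levels can be set side by side between genes, while the sequencing depth is unknown. Scp2, which encodes sterol carrier protein and a peroxisomal thiolase from the same locus, had the highest level, with 1629, 1638 and 1967 TPM in young libraries 1, 2 and 3, 1512, 1354 and 1499 in aged libraries and 1517, 1251 and 1390 in treated libraries. It made up 24.2% of the summed TPM of the 32 genes. Together with Acaa2 (the mitochondrial ketoacyl-CoA thiolase), Acaa1b (a peroxisomal ketoacyl-CoA thiolase) and Etfb (a subunit of the electron transfer flavoprotein) it accounted for 50.4%. In all, 17 genes had a mean above 100 TPM over the 9 libraries, 13 lay between 10 and 100 TPM, and Acox3 and Abcd2 lay at 10 TPM or less. None was listed at 0 in any library, and all 32 passed the filter for testing, a level of 1 TPM or more in 3 or more libraries.

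**Figure D1:**
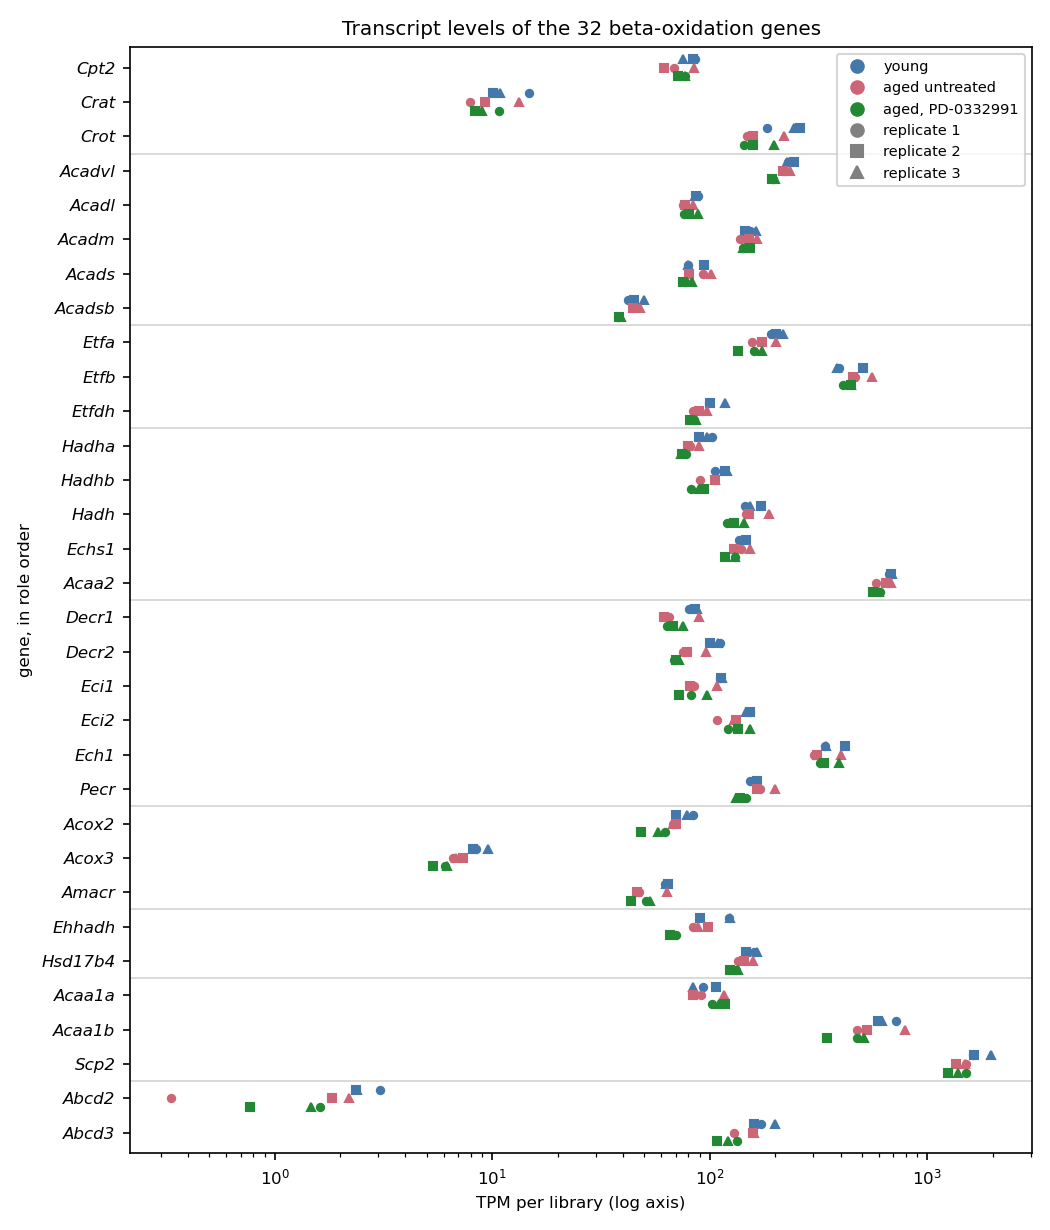
TPM (log axis) of each of the 32 genes in each of the 9 libraries, in the order of their roles, with colours for the groups and symbols for the replicates. The genes span from Abcd2, at 0.335 to 3.04 TPM, to Scp2, at 1251 to 1967 TPM.

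No member was called changed between aged untreated and young livers, and none between treated and aged untreated livers, but 6 were called lower in treated than in young livers. They were Ehhadh, Decr2, Acox2, Acox3 and Abcd3 of the peroxisome and Hadha of the mitochondrion. Differences were fitted on log2(TPM + 0.5) with limma over all 10161 genes that passed the filter, and a gene was called at a Benjamini-Hochberg adjusted p under 0.05. Against young livers, aged livers gave 0 of 32 calls, while the calls over all genes came to 1.1% (0.65% higher, 0.453% lower). Among the members, 9 (28.1%) stood at an unadjusted p under 0.05, all lower, beside 7.43% of all genes lower and 7.56% higher, and the smallest adjusted p was 0.132, of Decr2. Against aged livers, treated livers gave 0 of 32 calls, while the calls over all genes came to 1.45% (0.61% higher, 0.837% lower). Among the members, 8 (25%) stood at an unadjusted p under 0.05, all lower, beside 13.3% of all genes lower and 4.96% higher, and the smallest adjusted p was 0.0985, of Pecr. Against young livers, treated livers gave 6 lower and 0 higher calls (18.8% of the members), where 6.88% of all genes were called (2.59% higher and 4.29% lower). Of the members, 20 (62.5%) had an unadjusted p under 0.05, all lower, beside 18% of all genes lower and 6.87% higher.

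The direction of the difference was shared by most members. Aged minus young log2 fold changes were below 0 for 27 of 32 members beside 52.1% of all genes, with a median of -0.19 against -0.01 for all genes tested. The treated minus aged median was -0.15 against -0.09 for all genes, with 26 of 32 below 0 beside 66.7% of all genes. Treated minus young values had a median of -0.31 against -0.10 for all genes, with 30 of 32 below 0 beside 64.9% of all genes. Relative to the median of all genes, the members' medians were -0.18, -0.06 and -0.21 in these 3 comparisons. Scaling by the median of ratios moved the median of all genes from -0.10 to 0.02 for treated against young livers. For treated against aged livers it moved from -0.09 to 0.01. In the same order, 25 and 19 members then lay below 0, beside 46.8% and 48.6% of all genes. The members' medians were then -0.18 and -0.04. The age and drug comparisons share the aged untreated libraries, so they are not independent of each other.

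Libraries of the groups were separated for many members. All 3 aged libraries lay below all 3 young ones for 11 of 32 members (34.4%; 9.57% of all genes), and the reverse held for 0 members (8.82% of all genes). All 3 treated libraries lay below all 3 aged ones for 10 members (31.3%; 16.7% of all genes) and above them for 0 (5.72% of all genes). They lay below all 3 young ones for 22 members (68.8%; 24.4% of all genes) and above them for 0 (9.55% of all genes). For 23 members the young mean was the highest and the treated mean the lowest. Cpt2, Acadl, Eci2 and Ech1 had their lowest mean in aged livers, Acads, Hadh and Pecr had their highest mean there, and Etfb and Acaa1a had their lowest mean in young livers.

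Peroxisomal members had the larger median differences. For the 13 peroxisomal members the medians of the log2 fold change were -0.26 (aged minus young), -0.22 (treated minus aged) and -0.47 (treated minus young). For the 17 mitochondrial members they were -0.14, -0.14 and -0.25, beside -0.01, -0.09 and -0.10 for all genes. The gap varied with the setting. With the drug it narrowed to -0.123 against -0.112 under quantile normalization and to -0.179 against -0.176 without aged library 2. For treated against young livers it widened to -0.543 against -0.228 without treated library 1. It narrowed to -0.368 against -0.241 without treated library 2. With age it narrowed to -0.169 against -0.149 without young library 3 and widened to -0.270 against -0.109 without young library 1. Treated libraries lay below all young ones for 11 of 13 peroxisomal and 11 of 17 mitochondrial members, beside 24.4% of all genes. The lower calls were 5 (38.5%) and 1 (5.88%), beside 4.29% of all genes. The difference between the classes was not tested, and Eci2 and Ech1, whose products are found in both organelles, were counted in neither. The 95% intervals of the log2 fold change lay within 1 of 0 for 31, 32 and 31 of the 32 members in the 3 comparisons, the exception in both cases being Abcd2, and within 0.5 of 0 for 20, 24 and 13 members.

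**Figure D2:**
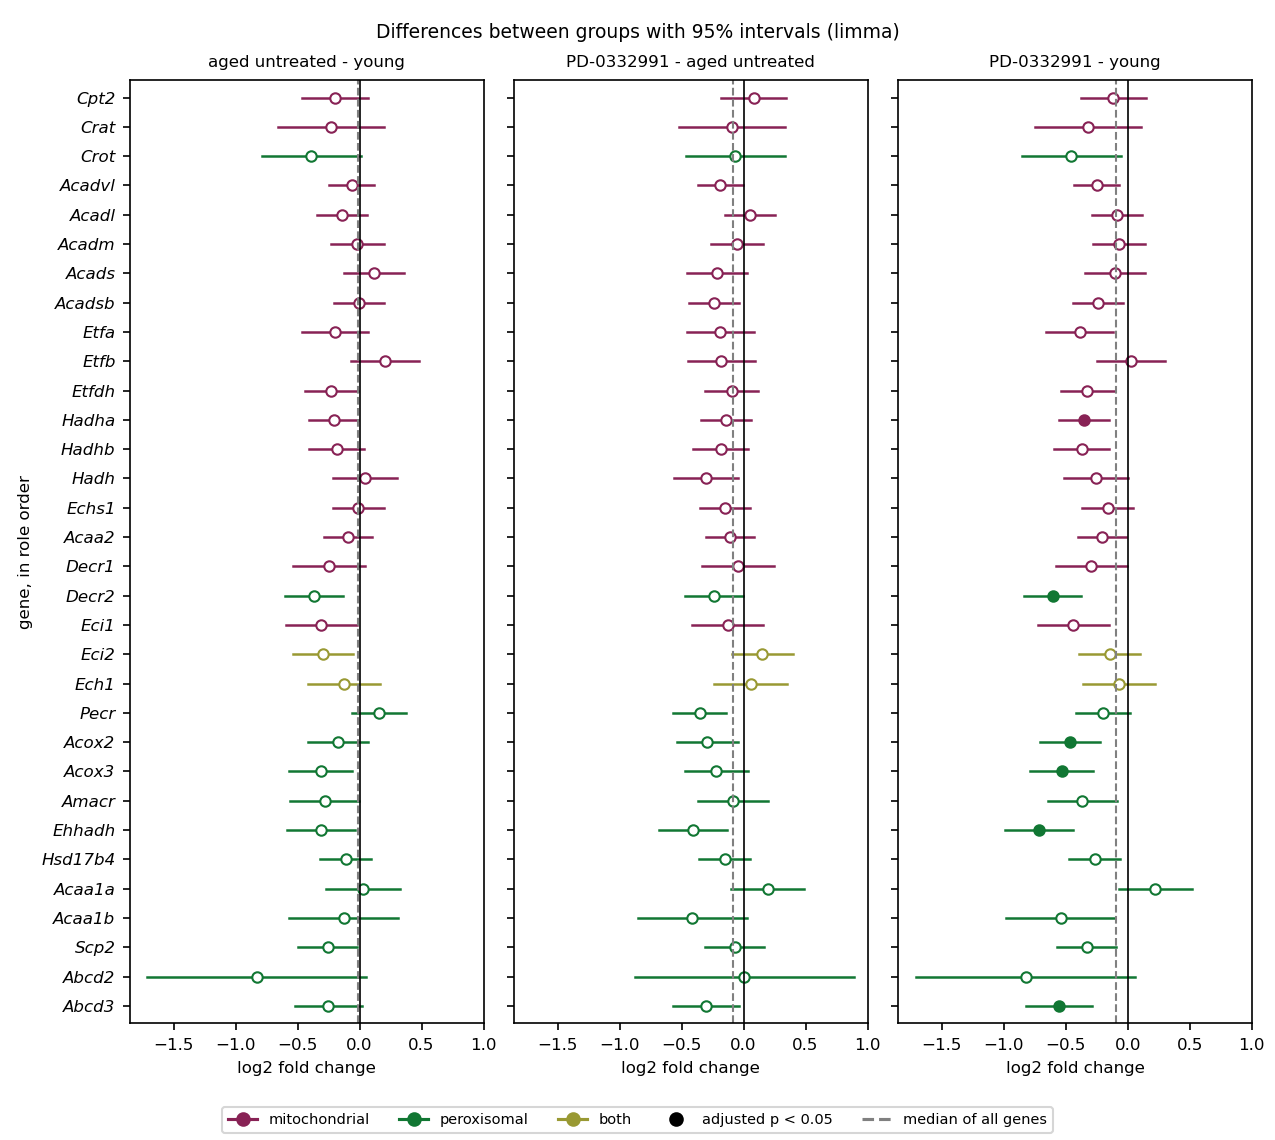
Log2 fold change with its 95% interval from limma for each of the 32 genes, in a panel for each comparison, with colours for the organelle, filled symbols for an adjusted p under 0.05 and a dashed line at the median of all genes tested. Filled symbols appear only in the panel of treated against young livers, for Hadha, Decr2, Acox2, Acox3, Ehhadh and Abcd3.

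The start regions of the called genes are shown to set their sequence beside their levels. Promoter windows of 300 bases (250 before and 50 after the start) were taken from RefSeq on GRCm38.p6 (mm10) and matched 26 of the 32 members by symbol. Acaa2, Crat, Abcd2, Amacr, Hsd17b4 and Decr1 had no entry. The 100 bases before the RefSeq start of Ehhadh and Acox3 and before the outer of the 2 RefSeq starts of Abcd3, and the 85 bases between the outermost GENCODE vM21 starts of the divergent neighbours Hadha and Hadhb, are given 5′ to 3′ with each CG in capitals, the first 3 in the direction of the gene and the last in that of Hadhb:
Ehhadh, chr16:21787835-21787934, minus strand: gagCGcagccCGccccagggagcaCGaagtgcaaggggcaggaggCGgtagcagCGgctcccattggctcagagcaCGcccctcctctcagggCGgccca
Acox3, chr5:35582934-35583033, plus strand: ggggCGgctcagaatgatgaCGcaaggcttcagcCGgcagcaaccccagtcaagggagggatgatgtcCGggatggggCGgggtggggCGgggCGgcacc
Abcd3, chr3:121815303-121815402, minus strand: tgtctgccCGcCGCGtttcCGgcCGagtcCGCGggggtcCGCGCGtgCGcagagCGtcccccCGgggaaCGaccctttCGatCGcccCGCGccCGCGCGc
Hadha to Hadhb, chr5:30155163-30155247, plus strand: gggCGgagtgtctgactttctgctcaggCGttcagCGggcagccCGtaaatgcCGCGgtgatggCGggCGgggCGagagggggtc
In their 300-base windows, Acox3 held 22 CG pairs, Hadha 20, Decr2 15 and Ehhadh 14. Abcd3 and Acox2 each have 2 RefSeq starts, whose windows held 45 and 42 CG pairs for Abcd3 and 4 and 2 for Acox2. With the higher count taken for such genes, the median was 17 over the 26 members and 8 over all genes of the table. Here and for the motifs below, all genes were not limited to those that passed the filter in liver, as the members did. The 2 sets thus differ in more than the pathway. GENCODE places the outermost start further out than RefSeq does for Hadha (by 182 bases), Decr2 (173) and Acox2 (334). The bases before the RefSeq starts of these 3 genes are not shown, and with RefSeq starts the gap between Hadha and Hadhb is 272 bases.

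The direct repeat bound by PPARalpha with its partner RXR, searched on both strands as AGGTCA, any 1 base, and AGGTCA again, had 0 exact matches in the windows of the 26 members, and 0.0481% of all 27025 genes in the table had one. With up to 2 mismatches in the 13 bases, Echs1, Etfa and Acox2 had a match (3 of 26 members; 4.40% of all genes). These matches are printed in the direction of the gene with the repeat in capitals and 8 bases on each side:
Echs1, chr7:140116484-140116512, minus strand: gcccgctcAGGTCACGGGTCCacccctta
Etfa, chr9:55512300-55512328, minus strand: gcacacccTTACCTTTGCCCTactcccaa
Acox2, chr14:8258810-8258838, minus strand: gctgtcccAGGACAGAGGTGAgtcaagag
The match of Etfa reads on the opposite strand, and that of Acox2 lies just after the inner of its 2 RefSeq starts. The core hexamer AGGTCA, which also occurs within the repeat, was found on either strand in 4 members (Acadm, Acadvl, Echs1 and Scp2; 18.1% of all genes), and CACGTG, the E-box of clock and other helix-loop-helix factors, in 0 members (8.09% of all genes). Such a match is a description of letters in a window and says nothing of binding in these livers.

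Among the carnitine acyltransferases, none of the 3 was called in any comparison. Crot, which makes medium-chain acylcarnitines for export from the peroxisome, read 183, 261 and 243 TPM in young libraries, 148, 158 and 220 in aged libraries and 144, 158 and 197 in treated libraries. Most aged and treated libraries lay below the young ones, but the ranges overlapped, and the aged minus young log2 fold change was -0.39 ± 0.18 (SE; adjusted p = 0.347). Cpt2, which rebuilds acyl-CoA inside the mitochondrion, had group means of 81.9 ± 5.40, 71.8 ± 12.1 and 75.4 ± 3.32 TPM (SD, n = 3 each) in young, aged and treated livers. Crat, the carnitine acetyltransferase, had means of 11.9 ± 2.50, 10.2 ± 2.81 and 9.35 ± 1.22 TPM.

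The 5 mitochondrial acyl-CoA dehydrogenases, which carry out the first step for chains of different length, had small differences. Their log2 fold changes ran from -0.14 to 0.12 with age, from -0.24 to 0.05 with the drug and from -0.25 to -0.07 for treated against young livers, with 0 calls. Acadvl, the enzyme of very long chains, had means of 234 ± 10.1, 224 ± 8.65 and 196 ± 3.18 TPM in young, aged and treated livers, and its treated libraries lay below all 6 others (treated minus young -0.25 ± 0.08, adjusted p = 0.088). Acadsb, which acts on short branched chains, also had its 3 treated libraries below the other 6, with means of 45.8 ± 3.85, 45.5 ± 1.83 and 38.5 ± 0.755 TPM. Acadm, the medium-chain enzyme, had a treated minus young value of -0.07 with a 95% interval from -0.28 to 0.14.

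The 3 electron transfer flavoproteins differed in sign with age and were all below 0 with the drug, with 0 calls in any comparison. Aged minus young values were -0.20 for Etfa, 0.21 for Etfb and -0.23 for Etfdh. Treated minus aged values were -0.19, -0.18 and -0.10 in that order. The difference between the genes was not tested. Etfb read 395, 510 and 383 TPM in young libraries, 464, 457 and 558 in aged libraries and 410, 447 and 446 in treated libraries, with a treated minus young log2 fold change of 0.03 ± 0.12. Its partner subunit Etfa had means of 204 ± 13.8, 178 ± 23.2 and 156 ± 19.4 TPM, with all 3 treated libraries below all young ones and a treated minus young value of -0.39 ± 0.12 (adjusted p = 0.0786). Etfdh, the oxidoreductase that hands the electrons to ubiquinone, had means of 106 ± 9.90, 90.3 ± 6.53 and 84.2 ± 2.48 TPM, and both its aged and its treated libraries lay below the young ones (treated minus young -0.33 ± 0.10, adjusted p = 0.0687). Of the 31-base words in Etfb transcripts, 49.9% also occur in transcripts of other genes of the GENCODE vM21 annotation, so its level depends on how the authors' estimate shared such reads out, and Etfb is uncertain.

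Hadha, the subunit of the mitochondrial trifunctional protein that holds the hydratase and the long-chain hydroxyacyl-CoA dehydrogenase, was the called mitochondrial member. It read 102, 89.8 and 97.6 TPM in young libraries, 81.0, 79.5 and 89.7 in aged libraries and 77.6, 74.6 and 74.1 in treated libraries. The groups formed steps that did not overlap, although the highest aged library lay only just below the lowest young one. The treated mean was lower than the young mean by a log2 fold change of -0.35 ± 0.09 (adjusted p = 0.0414), and the call held in 8 of 20 alternative settings. It ended with median-of-ratios scaling (adjusted p = 0.144), with no filter on low values (0.0559), without trend and robust variance (0.0685) and when any library other than aged library 3 was left out.

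Hadhb, the thiolase subunit of the same protein, starts on the other strand, across the gap shown above (85 bases between GENCODE starts and 272 between RefSeq starts). Its means were 115 ± 7.43, 101 ± 8.85 and 88.6 ± 6.15 TPM, and its treated minus young value of -0.37 ± 0.10 was as large as that of Hadha, with an adjusted p of 0.0517. The ratio of Hadhb to Hadha TPM was 1.19 ± 0.14 in young, 1.21 ± 0.11 in aged and 1.18 ± 0.11 in treated livers (SD, n = 3), so the pair kept its proportion within the spread between libraries. Of the 31-base words of Hadhb, 23.3% are shared with other genes, and 0.0913% of those of Hadha.

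Of the other core enzymes of the mitochondrial spiral, Hadh, the hydroxyacyl-CoA dehydrogenase of shorter chains, read 145, 172 and 153 TPM in young libraries, 147, 152 and 187 in aged libraries and 120, 129 and 143 in treated libraries. Treated libraries lay below all others, and the treated minus aged log2 fold change was -0.30 ± 0.12 (adjusted p = 0.207). Acaa2 read 666, 681 and 689 TPM in young libraries, 583, 647 and 679 in aged libraries and 605, 561 and 599 in treated libraries. Its treated libraries lay below the young ones (treated minus young -0.21 ± 0.09, adjusted p = 0.171). Echs1, the short-chain enoyl-CoA hydratase, had means of 142 ± 4.79, 141 ± 11.5 and 127 ± 7.30 TPM.

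Decr2, the peroxisomal dienoyl-CoA reductase needed for polyunsaturated chains, was called lower in treated than in young livers and had the smallest adjusted p of the members in that comparison and with age. It read 111, 101 and 110 TPM in young libraries, 75.6, 78.6 and 96.5 in aged libraries and 68.6, 70.2 and 72.2 in treated libraries. The groups stepped down without overlap from young to aged to treated. The treated mean fell by 34.5% from the young mean (log2 fold change -0.61 ± 0.11, adjusted p = 0.00949), while the steps with age (-0.37 ± 0.11, adjusted p = 0.132) and with the drug (-0.24 ± 0.11, adjusted p = 0.259) did not pass the threshold. The call against young livers held in 20 of 20 alternative settings.

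Eci1, the mitochondrial enoyl-CoA isomerase of unsaturated chains, read 112, 113 and 114 TPM in young libraries, 85.1, 81.7 and 108 in aged libraries and 81.8, 72.3 and 97.3 in treated libraries. Young libraries were close together and above all others, and the treated minus young value was -0.44 ± 0.13 (adjusted p = 0.0664). Decr1, the mitochondrial dienoyl-CoA reductase, had means of 84.4 ± 3.53, 72.1 ± 14.7 and 69.0 ± 5.89 TPM.

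Eci2, another isomerase, had its 3 aged libraries below all young ones, with means of 151 ± 3.79, 123 ± 13.1 and 137 ± 16.0 TPM, and an aged minus young value of -0.30 ± 0.11 (adjusted p = 0.247). Ech1, the dienoyl-CoA isomerase, had means of 367 ± 43.5, 338 ± 55.1 and 350 ± 38.3 TPM, and its groups overlapped in every comparison. Pecr, a peroxisomal enoyl-CoA reductase, read 153, 165 and 161 TPM in young libraries, 170, 165 and 200 in aged libraries and 148, 138 and 132 in treated libraries. All 3 treated libraries were below all 6 others, and the treated minus aged value was -0.35 ± 0.10 (adjusted p = 0.0985).

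Both peroxisomal oxidases among the members were called lower in treated than in young livers. Acox2, the oxidase of branched chains and bile acid precursors, read 83.8, 70.3 and 78.6 TPM in young libraries, 67.6, 70.0 and 67.9 in aged libraries and 62.3, 48.3 and 58.0 in treated libraries. The highest aged library lay just below the lowest young one, and the treated libraries lay below all 6 others (treated minus young -0.47 ± 0.11, adjusted p = 0.0317, called in 13 of 20 alternative settings with an adjusted p of up to 0.119). Its call ended with median-of-ratios scaling (adjusted p = 0.078), with no filter on low values (0.0551) and without trend and robust variance (0.0514), beside 4 single libraries left out. Acox3, an oxidase of branched chains, read 8.40, 8.15 and 9.60 TPM in young libraries, 6.59, 7.34 and 6.80 in aged libraries and 6.05, 5.33 and 6.22 in treated libraries. These groups did not overlap in any pair, and the treated minus young value was -0.53 ± 0.12 (adjusted p = 0.0214, called in 16 of 20 settings). Amacr, the racemase that readies branched chains for the oxidases, had means of 63.3 ± 0.81, 52.6 ± 9.65 and 49.2 ± 4.94 TPM and was not called (treated minus young -0.37 ± 0.13, adjusted p = 0.106).

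Ehhadh, the peroxisomal L-bifunctional enzyme that joins the hydration and dehydrogenation steps, had the largest called difference. It read 123, 90.7 and 124 TPM in young libraries, 83.6, 98.0 and 88.7 in aged libraries and 70.3, 66.1 and 66.9 in treated libraries. Young and aged libraries overlapped, since young library 2 lay within the aged range, and the treated ones lay together below all 6 others. The treated mean fell by 39.9% from the young mean (log2 fold change -0.72 ± 0.13, adjusted p = 0.00959, called in 20 of 20 alternative settings). Against aged livers the value was -0.41 ± 0.13 (adjusted p = 0.127).

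Hsd17b4, the D-bifunctional enzyme that handles branched chains and bile acid precursors, had means of 158 ± 9.74, 146 ± 11.5 and 131 ± 5.55 TPM. Its treated minus young value was -0.26 ± 0.09 (adjusted p = 0.112), and the difference between the 2 bifunctional enzymes was not tested.

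**Figure D3:**
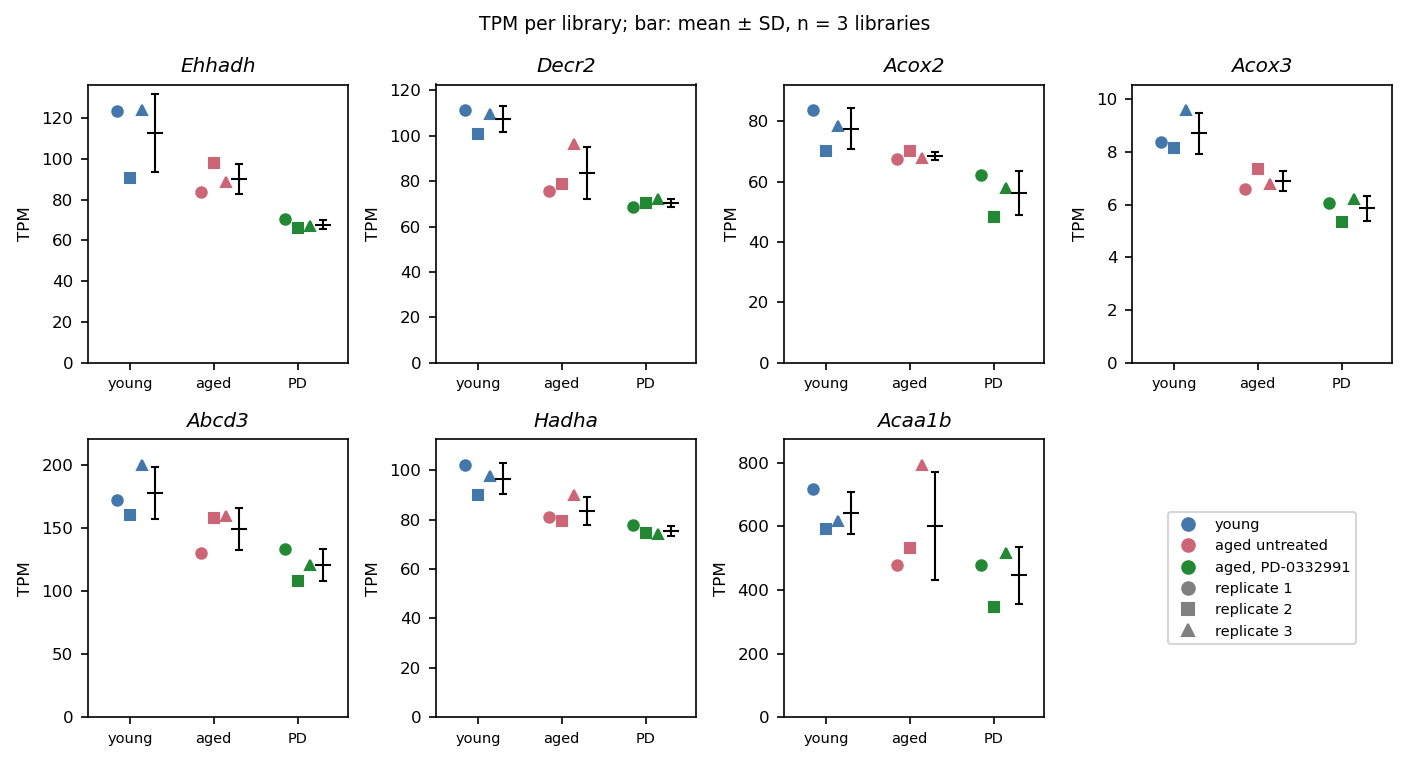
TPM in each library for the 6 called genes and Acaa1b, with linear axes that start at 0 and a bar for the mean ± SD of the 3 libraries of a group. For the 6 called genes, every treated library lies below every young library, as in Ehhadh with 66.1 to 70.3 against 90.7 to 124 TPM.

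The peroxisomal thiolases include the paralogs Acaa1a and Acaa1b, which differed in sign. Neither was called in any comparison, and the difference between them was not tested. Acaa1b read 717, 592 and 618 TPM in young libraries, 477, 531 and 794 in aged libraries and 478, 346 and 515 in treated libraries. Aged library 3 was the highest of all 9, so the aged range enclosed the young one, and the treated minus young value was -0.54 ± 0.20 (adjusted p = 0.125). Acaa1a read 93.2, 107 and 84.3 TPM in young libraries, 91.3, 83.9 and 117 in aged libraries and 102, 118 and 111 in treated libraries, with a treated minus young value of 0.22 ± 0.13 (adjusted p = 0.336).

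Acaa1a therefore made up 13.0% ± 2.08 of the summed TPM of the pair in young, 14.2% ± 1.68 in aged and 20.3% ± 4.51 in treated livers (SD, n = 3), and the sums were 737 ± 63.0, 698 ± 186 and 557 ± 83.5 TPM. The paralogs share sequence, with 40.0% of the 31-base words of Acaa1b found in Acaa1a, so the split between them is uncertain. For Scp2, whose values stand above, the aged libraries lay below the young ones (aged minus young -0.26 ± 0.11, adjusted p = 0.294). The treated minus young value was -0.33 ± 0.11 (adjusted p = 0.0875), and 33.4% of its 31-base words also occur in the pseudogene Scp2-ps2.

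Of the ABC transporters, which carry acyl-CoAs into the peroxisome, Abcd3 was called lower in treated than in young livers. It read 172, 161 and 200 TPM in young libraries, 130, 158 and 160 in aged libraries and 133, 108 and 121 in treated libraries. Aged libraries 2 and 3 lay just below the lowest young library and aged library 1 lay within the treated range, and the treated minus young value was -0.56 ± 0.12 (adjusted p = 0.0225, called in 16 of 20 alternative settings). Abcd2, a transporter of very long chains with little expression in liver, read 3.04, 2.36 and 2.39 TPM in young libraries, 0.335, 1.84 and 2.19 in aged libraries and 1.62, 0.772 and 1.47 in treated libraries. All young libraries were above all others, but its aged minus young value of -0.83 ± 0.39 (adjusted p = 0.364) came with the widest error of the members.

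The count of calls for treated against young livers depended on single libraries. It was 2 without young library 1, without young library 3, without treated library 2 or without treated library 3, with Ehhadh and Decr2 remaining in each case, and 12 without aged library 3. Calls over all genes moved the same way, from 699 to 218, 257, 153 and 252 in the first 4 of these settings and to 1263 without aged library 3. The 2 members are thus 6.25% beside 1.51% to 2.53% of all genes, and the 12 members 37.5% beside 12.4%. With age, 3 members (Decr1, Decr2 and Amacr; 9.38%) were called lower without aged library 3, where 6.85% of all genes were called.

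Among genes around the pathway, Ppara and Cpt1a were called higher with the drug. Ppara read 21.3, 19.5 and 19.7 TPM in young libraries, 9.83, 9.83 and 13.8 in aged libraries and 20.0, 22.4 and 19.8 in treated libraries. All aged libraries were low and the treated ones stood at the young level, and Ppara fell with age (-0.84 ± 0.13, adjusted p = 0.0144) and rose with the drug (0.88 ± 0.13, adjusted p = 0.0158). The call with age ended without young library 1, young library 2 or aged library 1 (adjusted p of up to 0.0864). The drug call ended without treated library 2, without treated library 3 and with only the 6 libraries compared (up to 0.0716).

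Cpt1a, the carnitine palmitoyltransferase that sets the pace of mitochondrial uptake, read 44.9, 40.0 and 45.1 TPM in young libraries, 31.6, 35.0 and 31.7 in aged libraries and 53.4, 48.8 and 49.3 in treated libraries. Treated libraries were above all others, and Cpt1a rose with the drug (0.62 ± 0.09, adjusted p = 0.0158), a call that ended in the same 3 settings as that of Ppara (adjusted p of up to 0.0697).

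Slc25a20, the carnitine-acylcarnitine carrier, followed most members, with means of 61.3 ± 4.68, 51.9 ± 7.17 and 49.6 ± 1.47 TPM (treated minus young -0.30 ± 0.11, adjusted p = 0.126). Its treated libraries, at 51.1, 48.1 and 49.7 TPM, lay below the young ones, at 63.9, 55.9 and 64.2.

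**Figure D4:**
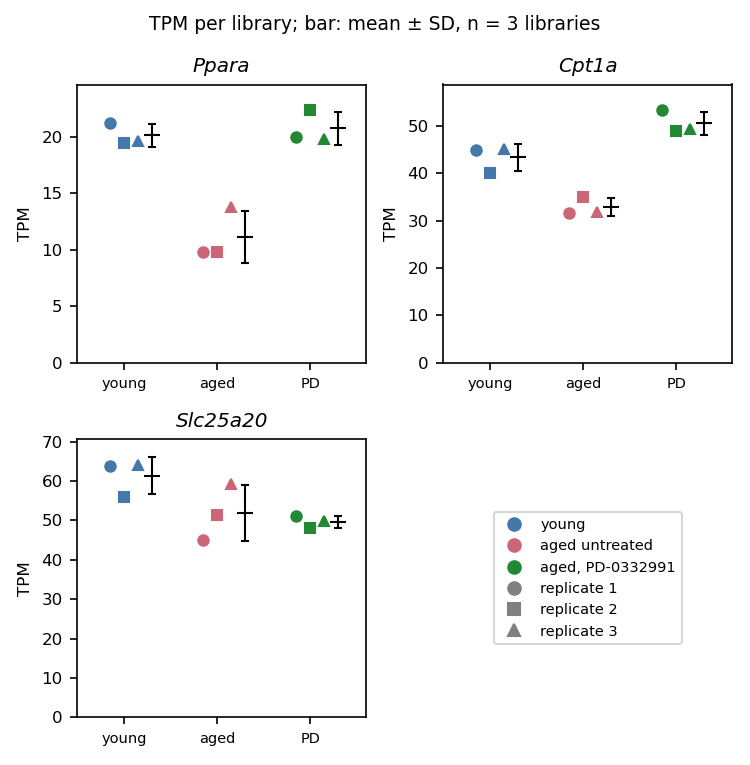
TPM in each library for Ppara, Cpt1a and Slc25a20, with linear axes that start at 0 and a bar for the mean ± SD of the 3 libraries of a group. Ppara and Cpt1a are lowest in aged livers and higher in treated ones, whereas the treated libraries of Slc25a20 lie below the young ones.

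Of 58 other genes of fatty acid oxidation and ketone body metabolism, 54 passed the filter (Ppargc1a, Ppargc1b, Acsm2 and Oxct1 did not). With age 0 of these were called higher and 2 lower (Ppara and Acsm3), with the drug 2 higher and 0 lower (Ppara and Cpt1a), and for treated against young livers 0 higher and 6 lower. The calls were 3.70%, 3.70% and 11.1% of the 54 in the 3 comparisons, beside 1.1%, 1.45% and 6.88% of all genes. Their median log2 fold changes were -0.12, -0.07 and -0.21, beside -0.01, -0.09 and -0.10 for all genes. The 6 lower genes were the acyl-CoA synthetases Acsm3 (-0.71 ± 0.13), Acsm5 (-0.73 ± 0.13) and Acsl1 (-0.50 ± 0.12), the thiolase Acat1 (-0.68 ± 0.14), the ketone body dehydrogenase Bdh1 (-0.51 ± 0.13) and catalase, Cat (-0.42 ± 0.10). The call of Acsm5 ended without young library 1 (adjusted p = 0.0542), that of Acsm3 without treated library 2 (adjusted p = 0.0513), and those of Acsl1, Acat1 and Bdh1 when any of several single libraries was left out. With age, the call of Acsm3 ended in several settings (adjusted p of up to 0.161). Cat lies outside the rule for naming genes and was named after its values were seen. Its call was not followed through the alternative settings. Of 20 genes of peroxisome formation and membranes, 0 were called with age, 0 with the drug and 1 lower for treated against young livers, Pex3, which inserts peroxisomal membrane proteins (-0.61 ± 0.16, adjusted p = 0.0456, and up to 0.164 in alternative settings). The call of Pex3 was 5% of the 20, beside 6.88% of all genes. The medians of the 20 genes were -0.13, -0.11 and -0.18, beside the -0.01, -0.09 and -0.10 of all genes.

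The level of the whole pathway also differed between libraries of a group. The summed TPM of the 32 genes was 6722 to 7129 in young libraries, 5901, 5961 and 7006 in aged libraries 1, 2 and 3, and 5351 to 5960 in treated libraries. Aged library 3 thus stood with the young libraries, and it was the highest of the aged libraries for 26 of 32 members and the lowest for 0. Its sum of 14 acute phase and stress genes was the lowest of the aged libraries, at 2556 TPM beside 22841 and 5590 TPM in libraries 1 and 2 (2446 to 6227 TPM in young and 14254 to 25542 TPM in treated libraries). The clock gene Dbp read 14.3 TPM in aged library 3, beside 0.645 and 0.576 TPM in the other aged libraries, 6.51 to 14.8 TPM in young and 6.99 to 27.7 TPM in treated libraries. Dbp, 1 of 12 clock genes in the list, lies outside the rule for naming genes, and the others are not given per library. The 12 summed to 104 TPM in aged library 3, beside 46.3 and 45.1 TPM in aged libraries 1 and 2. In young libraries the sum was 72.6 to 91.2 TPM, and in treated libraries 104 to 156 TPM. The part of these differences in the members' levels was not tested.

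**Figure D5:**
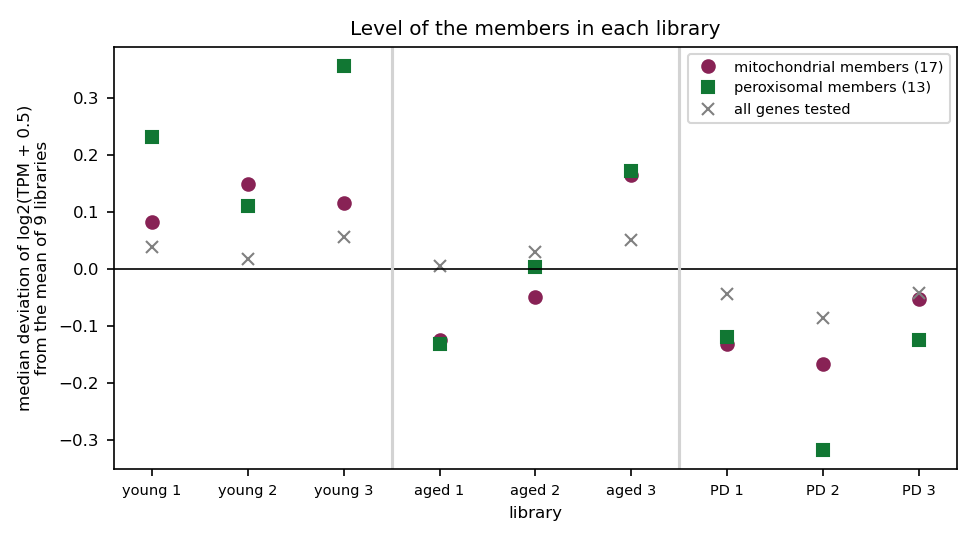
Median deviation of log2(TPM + 0.5) from the mean of the 9 libraries, for the 17 mitochondrial and the 13 peroxisomal genes and for all genes tested, in each library. Young libraries and aged library 3 lie above 0, the other aged libraries lie near or below 0, and the treated libraries (PD) lie below 0 for both classes.

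Marker genes of liver cell types were measured alongside. In bulk tissue, fewer cells of a type and less RNA per cell cannot be told apart. Of 12 hepatocyte markers 11 were listed and tested, with sums of 26984 to 31429 TPM over the 9 libraries. Apoa1 and Ttr, with means of 11561 and 6773 TPM over the 9 libraries, weighed most in these sums. Ttr was called lower in treated than in young livers (-0.41, adjusted p = 0.0357), and 0 were called in the other comparisons. For treated against young livers 7 of the 11 were below 0 and 4 above. Without a call, Pck1 (1.08, adjusted p = 0.129), Fgb (0.72, adjusted p = 0.0646) and Hnf4a (0.56, adjusted p = 0.153) had all treated libraries above all young ones, and these 3 were named after their values were seen. Alb was listed at 0 in all 9 libraries. For treated against young livers, 10 of 10 Kupffer cell and macrophage markers were below 0 and 4 were called lower (Clec4f, Vsig4, Csf1r and Cd68), with sums of 138 to 220 TPM in young, 130 to 195 in aged and 127 to 133 in treated libraries.

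Neutrophil markers summed to 2.89 to 3.83 TPM in young, 8.69 to 25.7 in aged and 24.4 to 34.5 in treated libraries, and 3 of the 3 tested (S100a8, S100a9 and Retnlg) were called higher in treated than in young livers. For the same comparison, 0 of 8 sinusoidal endothelial, 1 of 7 stellate and fibroblast (Col3a1, lower), 0 of 2 tested cholangiocyte, 0 of 1 tested lymphocyte, 0 of 3 tested erythroid and 0 of 1 tested pancreatic acinar markers were called, and no adipocyte marker passed the filter. Lep, Cpa1, Prss1 and Pnlip were listed at 0 in all libraries. Of the clock genes 1 of 11 tested was called (Per1, higher), and of the acute phase and stress genes 1 of 12 tested (Crp, higher). With age, Lyve1 of the endothelial and Col3a1 of the stellate list were called lower. Sox9 of the cholangiocyte and Cry1 of the clock list were called higher. Sox9 was the only cholangiocyte marker with a higher mean in aged than in young livers. Spp1 was lower without a call (-0.29), and Krt19, Krt7 and Epcam, which did not pass the filter, had lower aged means. With the drug, Per1 was called higher and Cry1 lower. The part of these lists in the lower levels of the 6 called members was not tested.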

How the data were processed

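Liver RNA of 9 mouse libraries was sequenced as Illumina TruSeq libraries, per the labels' protocols. The authors deposited 1 table of TPM per library, made with kallisto and mm10 per the submitters' processing notes. Its version, the transcript set and the summing to genes were not given in the sources used here. TPM keeps no depth, so no counting error is given. The listed TPM came to between 53.1% and 57.6% of the full scale, and 4 rows whose symbol was ambiguous were left out.

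Genes that reached 1 TPM in 3 or more libraries (10161) were fitted as log2(TPM + 0.5), which understates changes of low genes, with limma 3.58.1 in R 4.3.3 (trend and robust variance, group as the only term, all 9 libraries, two-sided, Benjamini-Hochberg over all genes). The fit was run on simulated data in which each gene had independent noise. Such data held no shift shared across a library, so they cannot show how such shifts affect the calls. The members, the gene lists and the alternatives were chosen with earlier results of these data known. Genes given per library were the called members, the 6 members with the largest differences with age and with the drug, the 4 with the highest mean, Acaa1a and Acaa1b, and set genes of the pathway, of which some are left out of the lists and not reported here; called genes of the other lists were named up to 6 per comparison. Alternatives were other pseudocounts, filters, scalings and variance settings, a replicate block, and leaving out each library. Positions come from GENCODE vM21 and start sites from RefSeq.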

Additional observations from a re-analysis of the deposited data

How the results depend on the processing

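Each of the 3 comparisons was recomputed under 20 alternative settings. Members called with the drug numbered 0 in all of them, where 0.0689% to 3.86% of all genes were called. With age the count was 1 with array weights (Decr2, 3.12% beside 4.82% of all genes). When a library was left out it ran from 0 to 3 (3 without aged library 3, 9.38% beside 6.85% of all genes). For treated against young livers it was 10 (31.2%) with quantile normalization, with the listed TPM rescaled to a common total and with array weights. Beside these stood 6.08%, 7.45% and 13.3% of all genes. It was 12 (37.5%) with only the 6 libraries compared, beside 12.6% of all genes. It was 4 (12.5%) with median-of-ratios scaling, with no filter and without trend and robust variance, beside 6.04%, 2.94% and 6.83% of all genes. Hadha and Acox2 were lost in each of the settings with 4. When a library was left out the count ran from 2 (6.25% beside 1.51% to 2.53% of all genes) to 12 (37.5% beside 12.4%). Median-of-ratios scaling moved the members' median to -0.041 for the drug and -0.18 for treated against young livers, and turned the calls over all genes for treated against young livers from 263 higher against 436 lower to 386 against 228, and for the drug from 62 against 85 to 119 against 55. Quantile normalization gave 308 against 310 and 88 against 56. The cause was not tested.

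Counts over all genes (112 with age, 147 with the drug, 699 for treated against young livers) ran from 16 to 696, 7 to 392 and 153 to 1263 when a library was left out; they were 490, 271 and 1354 with array weights, 49, 25 and 1282 with only the 6 libraries compared, 62, 29 and 495 with no filter, and 66 with age without trend and robust variance.

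The replicate block gave 0, 0 and 6 called members in the 3 comparisons, with Hadhb called in place of Hadha, and 91, 60 and 492 called genes. Same-numbered libraries correlated from -0.22 to 0.17 in their deviations from the group means, and other pairs from -0.22 to 0.23. With deviations within groups of 3 libraries, these values cannot decide whether the numbers pair the libraries. Under the block, Acsm3 with age, Pex3, Bdh1 and Acsl1 were not called.

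Some small log2 differences reversed their sign. With age, array weights gave Hadh -0.0073 and Acaa1a -0.031; without single libraries Hadh ran from -0.063 to 0.11, Acaa1a from -0.11 to 0.13 and Acaa1b from -0.35 to 0.021. With the drug, a pseudocount of 1 gave Abcd2 -0.025, median-of-ratios scaling gave Crot 0.039, Scp2 0.034 and Slc25a20 0.049, and array weights gave Crot 0.066 and Slc25a20 0.031; without single libraries Abcd2 ran from -0.52 to 0.32, Crot from -0.19 to 0.11, Slc25a20 from -0.15 to 0.044 and Bdh1 from -0.059 to 0.19. For treated against young livers, quantile normalization gave Etfb -0.018; without single libraries Etfb ran from -0.049 to 0.16 and Ppara from -0.013 to 0.081. The depth of the libraries is unknown, and 3 libraries per group limit which differences can pass the threshold.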

Other observations

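The ratio of Etfb to Etfa TPM was 2.12 ± 0.39 in young, 2.78 ± 0.17 in aged and 2.81 ± 0.42 in treated livers (SD, n = 3), with every aged and treated library above every young one, while the ratio of Etfdh to Etfa was 0.520 ± 0.019, 0.509 ± 0.029 and 0.543 ± 0.054. Etfb shares 47.3% of its 31-base words with Gm45233, and the part of that overlap in the ratio was not tested. Fgf21, a liver hormone gene of the fasting response, read 5.80, 1.13 and 2.28 TPM in young libraries and 0.477, 0.0808 and 0.220 TPM in aged libraries, with a mean of 0.730 ± 0.341 TPM (SD, n = 3) in treated libraries. Its young libraries were above all others without a call (aged minus young -2.04, adjusted p = 0.066). Slc22a5, the carnitine transporter of the plasma membrane, read 10.6, 7.68 and 8.02 TPM in young, 5.62, 7.53 and 7.99 in aged and 9.39, 15.1 and 13.3 in treated libraries, with treated above all aged ones (treated minus aged 0.78 ± 0.19, adjusted p = 0.0674). Fgf21 and Slc22a5 were named after their values were seen.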
